A study of Homo sapiens with 14 samples.

Results

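The genes described here are 275 zinc finger genes whose symbol is ZNF followed only by digits and which were expressed in every library of the series, of 478 genes with such a symbol among 78686 gene identifiers. They were selected on measured levels: each has an expected count (the estimated number of reads assigned to a gene) of 20 or more in all 14 libraries, and 1 gene is left out by the rule. The lowest count of all 275 genes fell in the same library, 12 h replicate 2, so that library decided which genes were kept. Just inside the threshold, the lowest counts were 20 for ZNF136, 20.4 for ZNF799 and 21 for ZNF566. Just outside it, they were 19.1 for ZNF596, 19 for ZNF112 and 19 for ZNF19.

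All libraries came from HCT116, a human colorectal carcinoma line, carrying osTIR1(F74G) and SAF-A-mAID-Halo. SAF-A, scaffold attachment factor A, is a nuclear RNA- and DNA-binding protein encoded by HNRNPU. It is fused here to a degron tag and a Halo tag, and the F-box protein osTIR1 lets the auxin analogue 5-Ph-IAA target the tagged protein for degradation. Vehicle (DMSO), 5-Ph-IAA for 3 h and 5-Ph-IAA for 12 h form a time-course set. Its vehicle labels give no time, and the same vehicle pair serves both 5-Ph-IAA times. A part of vehicle time in the changes was not tested. Vehicle, Nutlin, 5-Ph-IAA and the combination of 5-Ph-IAA with Nutlin form a Nutlin set, whose treated libraries are labelled 3 h. Those labels do not say whether the 3 h is the time of 5-Ph-IAA or of Nutlin. Nutlin blocks MDM2 and so stabilises p53, and the labels used here give no dose. Each of the 7 groups has 2 libraries, the controls carry the same tagged allele as the treated cells, and the labels name no clone and do not say whether replicates came from separate cultures, so a p-value speaks to the spread between the deposited libraries alone. Both sets were set against their own vehicle.

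Zinc finger proteins of this class hold tandem C2H2 fingers, each a short loop in which a pair of cysteines and a pair of histidines bind zinc, and neighbouring fingers read successive bases of DNA. Many carry a KRAB domain at the amino end, which recruits the corepressor TRIM28 and, through it, the histone methyltransferase SETDB1 to silence transposable elements. The genes lie in clusters of repeated duplication, most of all on chromosome 19, and many of their transcripts are rich in A and T. GC content was therefore followed throughout, and each comparison was fitted without and with a GC trend. The trend is a curve in each library through all tested genes with a GC value. It removes the part of their signal that varies with the GC content of the transcript.

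A stretch of coding sequence shows how 1 protein motif is written with different bases. The runs below are the first C2H2 finger, each within 1 exon, of a gene with an AT-rich transcript (ZNF92, on chr7:65398721-65398783, plus strand), 2 others on the minus strand (ZNF644, on chr1:90940058-90940120, and ZNF674, on chrX:46500851-46500913) and a gene with a GC-rich transcript (ZNF142, on chr2:218649353-218649415, minus strand). They were read 5′ to 3′ from GENCODE 29 transcripts on GRCh38 and are shown because results below turn on these genes. Capitals mark the codons of the 2 cysteines and 2 histidines.
ZNF92: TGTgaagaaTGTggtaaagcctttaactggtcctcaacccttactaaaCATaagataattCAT
ZNF644: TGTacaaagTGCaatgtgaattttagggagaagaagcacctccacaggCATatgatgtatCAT
ZNF674: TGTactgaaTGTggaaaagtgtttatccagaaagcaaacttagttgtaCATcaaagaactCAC
ZNF142: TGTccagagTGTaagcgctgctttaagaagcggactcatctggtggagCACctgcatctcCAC

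The zinc-binding codons differ little between these runs, while the bases around them take the finger from 34.9% GC in ZNF92 and ZNF674 and 39.7% in ZNF644 to 54.0% in ZNF142. ZNF92 and ZNF674 share 38 of 63 bases, and ZNF92 and ZNF142 share 26 of 63. Among the 267 genes with a finger pattern in the longest reading frame, the fingers had a median GC content of 43.5% and ranged from 29% to 71.3%. Across those genes finger GC followed the GC content of the whole transcript they were read from, with a Pearson r of 0.90. This is a description over genes in which the fingers are part of the transcript. That transcript, the coding one with the most fingers, is not always the longest one, whose GC content is used elsewhere. For ZNF200 the values were 45.7% and 41.0%.

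Promoters of the same genes were mostly GC-rich. RefSeq's table on GRCh38.p14 held 250 bases before to 50 after the start site for 235 of the 275 genes. Their median GC content was 62.3%, beside 65.3% for 10378 promoters of the other tested protein-coding genes and 58.3% for all 27305 promoters. Single promoters ranged from 35% to 84.7% GC, and 227 of the 235 were above 50%. The promoters of ZNF92 (chr7:65373605-65373904, plus strand) and ZNF142 (chr2:218659574-218659873, minus strand) are printed on the gene's strand with each CG dinucleotide in capitals, because the transcript of ZNF92 is AT-rich and that of ZNF142 GC-rich and, as given below, their levels moved in opposite directions at 12 h. The promoter of ZNF674 (chrX:46545372-46545671, minus strand), the gene that passed the test after Nutlin, follows them.
ZNF92: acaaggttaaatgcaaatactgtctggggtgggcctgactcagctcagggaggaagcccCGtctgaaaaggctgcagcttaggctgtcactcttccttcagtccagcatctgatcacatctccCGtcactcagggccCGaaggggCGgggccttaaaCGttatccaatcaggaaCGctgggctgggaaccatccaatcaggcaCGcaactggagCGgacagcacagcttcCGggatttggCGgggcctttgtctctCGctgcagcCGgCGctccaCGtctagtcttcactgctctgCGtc
ZNF142: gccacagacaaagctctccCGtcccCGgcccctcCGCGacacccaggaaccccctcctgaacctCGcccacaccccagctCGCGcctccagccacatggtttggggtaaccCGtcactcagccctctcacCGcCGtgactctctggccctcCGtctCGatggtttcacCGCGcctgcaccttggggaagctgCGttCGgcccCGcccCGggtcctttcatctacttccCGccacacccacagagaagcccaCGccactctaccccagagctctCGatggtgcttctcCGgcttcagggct
ZNF674: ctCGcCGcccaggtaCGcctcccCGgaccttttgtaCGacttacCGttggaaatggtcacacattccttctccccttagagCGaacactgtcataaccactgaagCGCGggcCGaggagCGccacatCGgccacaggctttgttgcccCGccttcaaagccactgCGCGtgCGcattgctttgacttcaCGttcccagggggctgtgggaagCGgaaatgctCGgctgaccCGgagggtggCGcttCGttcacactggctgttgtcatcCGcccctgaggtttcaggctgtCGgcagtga

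ZNF92's promoter is 58.3% GC with 15 CG dinucleotides, ZNF142's is 66.3% with 22 and ZNF674's is 60.7% with 24, against a median of 23 over the 235 promoters and 26 over the other tested protein-coding genes. The letters CCGGAAG, the core of many ETS factor sites, were searched on both strands. They occurred in 104 of the 235 promoters (44.3%), beside 18.4% of promoters of the other tested protein-coding genes and 10.7% of all promoters. ZNF92's promoter holds them and those of ZNF142 and ZNF674 do not. A match is a description of the letters and not of binding.

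The 275 genes were expressed at low levels. Mean TPM (a level per transcript length and library size) over the 14 libraries had a median of 5.24 and ran from 0.756 for ZNF70 to 99.9 for ZNF207, with 23 genes above 20 TPM. ZNF207 (BuGZ), a spindle-associated protein that binds the checkpoint protein BUB3, ranged from 81.2 to 119 TPM over the libraries. ZNF146, which consists almost wholly of fingers, averaged 99.6 TPM, ZNF593, a ribosome biogenesis factor, 57.1, ZNF121 46.6 and ZNF638, a nuclear protein of retroviral DNA silencing, 44.2. Together the genes took 0.783% to 0.903% of each library's counts.

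On chromosome 19 lay 111 of the genes (40.4%), beside 7.18% of tested protein-coding genes. Another of the 275 lay within 100 kb of 152 genes, of which 91 were on chromosome 19. Translated reading frames held a median of 10 fingers and at most 33. Both KRAB patterns searched for were found in 127 genes, 1 of them in 36 and neither in 112, and both were found in 67.6% of the genes on chromosome 19 against 31.7% elsewhere. Median transcript GC was 43.9%, with a range from 33.8% to 70.3%, beside 48.6% for the 16800 other tested genes with a value. The most AT-rich transcripts were those of ZNF680, ZNF678 and ZNF100, and the most GC-rich those of ZNF316, ZNF358 and ZNF787. Genes with both KRAB patterns had a lower median GC (42.2%) than genes with neither (48.2%). The counts of 119 genes were split between features by the authors' estimation in at least 1 library, 26 of them in all 14, so those values are less certain.

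Library depth was 29.6 M to 35.1 M expected counts (M for mega) in the time-course set, except 3.54 M for 12 h replicate 2, and 12.6 M to 17.2 M in the Nutlin set. HNRNPU RNA stood at 110 to 160 TPM in all libraries, which checks nothing, since the degron acts on the protein. Of 8 colon epithelial markers, 6 were at 1 TPM or more in every library, while VIL1 did not exceed 0.26 TPM and CEACAM5 was listed at 0 in all. Of 10 markers of other cell types, 9 stayed under 1 TPM and COL1A1 ranged from 0.41 to 1.91 TPM.

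After 12 h of 5-Ph-IAA the ZNF genes divided by base composition: AT-rich transcripts stood lower and GC-rich ones higher than in vehicle. ZNF92, ZNF181 and ZNF644 fell and ZNF142, ZNF609 and ZNF589 rose, while the median of all 275 genes moved by 0.02 (log2). With both 12 h libraries, 14 genes were higher and 15 lower at an adjusted p under 0.05 in edgeR's quasi-likelihood test, where 3.39% and 7.97% of all 19049 tested genes were raised and lowered. Since 12 h replicate 2 had decided which genes were kept, these counts are a description. In a fit without that library, which assumes that the single 12 h library left varies like the other groups, 13 genes rose and 14 fell, beside 2.79% and 6.42% of all tested genes, and 21 of the 29 genes were called again. Leaving out 12 h replicate 1 instead gave 7 calls (4.48% of all tested genes), and leaving out vehicle replicate 2 gave 16 (7.44%). Without 12 h replicate 2, rises were 4.73% of the 275 genes and falls 5.09%. In bulk RNA a lower level in every cell and a change in the mix of cells cannot be told apart.

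With the GC trend in the fit, most of these calls were lost. Both 12 h libraries together then gave 7 higher and 0 lower genes of the 275, all 7 among the 29 above, with 2.05% of all tested genes raised and 2.12% lowered. The rule drops genes with a count under 20 in 12 h replicate 2, so it limits which lowered genes can be seen. Of 337 ZNF genes taken by a mean count of 20 instead, the same fit called 7 higher and 2 lower. Without 12 h replicate 2 the GC-trend fit gave 8 raised genes and 1 lowered gene, with 1.1% and 1.63% of all genes. Over all tested genes the trend took 645 raised and 1518 lowered calls to 391 and 403. The median of the 275 genes was 0.07 with the trend, against 0.01 for all tested genes. At an unadjusted p under 0.05 there were 80 of the 275 genes without the trend, where 25.3% of all tested genes had such a p, and 61 with it, where 19.6% did. DESeq2 without the trend called 14 higher and 12 lower among the 263 of them that it gave an adjusted p, with 8.01% and 13.8% of all genes that had one.

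**Figure D1:**
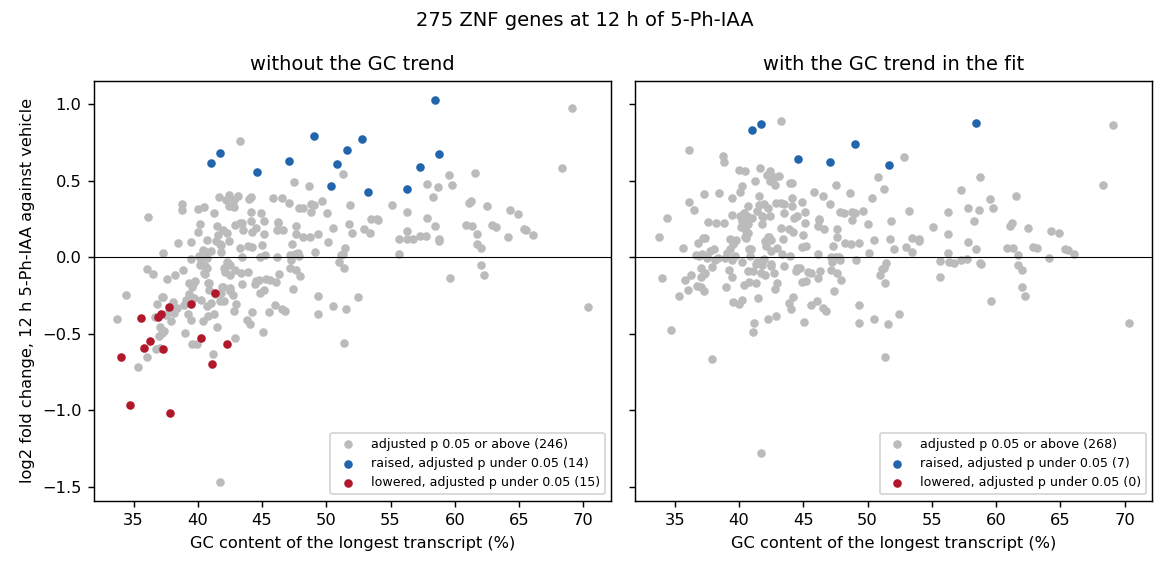
Log2 fold change of the 275 ZNF genes at 12 h of 5-Ph-IAA against vehicle (y axis) by GC content of the longest transcript in percent (x axis), both 12 h libraries, without the GC trend (left) and with it (right). Each point is 1 gene, blue where raised and red where lowered at an adjusted p under 0.05: the left cloud climbs with GC and holds 14 blue and 15 red points, the right one is level and holds 7 blue points and 0 red ones.

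Split into terciles by transcript GC, the AT-rich tercile (33.8% to 41.5% GC, 92 genes) had a median log2 fold change of -0.26 at 12 h, with 1 gene called higher and 14 lower. The middle tercile (41.7% to 47.5%, 91 genes) had a median of 0.0009, with 3 higher and 1 lower. In the GC-rich tercile (47.6% to 70.3%, 92 genes) the median was 0.19, with 10 higher and 0 lower. With the GC trend the medians were 0.05, 0.11 and 0.08. Across the 275 genes, log2 fold change and GC had a Spearman rho of 0.57 without the trend and 0.06 with it. Both 12 h libraries showed the split: relative to the mean of the vehicle pair, the AT-rich tercile had medians of -0.28 in replicate 1 and -0.21 in replicate 2, and the GC-rich tercile 0.19 and 0.23. The curve through all tested genes with a GC value moved the same way. In these libraries it stood at -0.42 and -0.47 for transcripts of 36% GC and at 0.14 and 0.17 for those of 60% GC. The curve's part in the members' changes beyond what the fit with the trend removes was not tested. The share of all tested genes called within each GC range was not computed, so the tercile counts have no such share beside them.

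**Figure D2:**
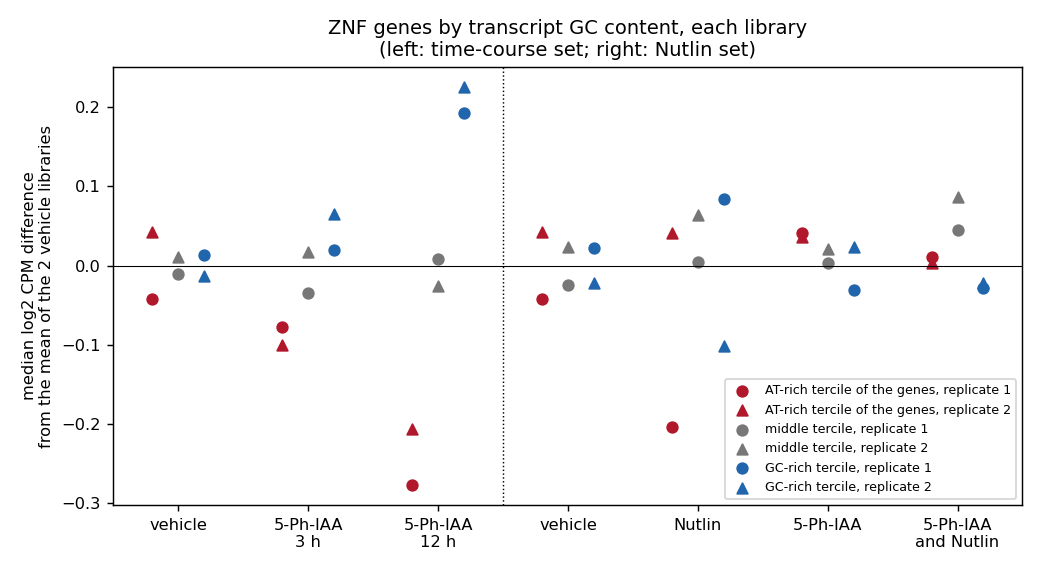
Median log2 CPM difference of the AT-rich, middle and GC-rich terciles of the 275 ZNF genes from the mean of the 2 vehicle libraries of the same set (y axis), for each of the 14 libraries by group (x axis), with circles for replicate 1 and triangles for replicate 2. The 12 h libraries have the AT-rich tercile at -0.28 and -0.21 and the GC-rich tercile at 0.19 and 0.23, and the 2 Nutlin libraries go opposite ways.

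ZNF142 (chr2:218637916-218659655, 58.5% GC), a protein with more fingers than most, had 24.2 and 18.7 CPM (counts scaled to library size) in vehicle and 45.9 and 40.0 CPM at 12 h. Both 12 h values lay above both vehicle values. In the other set its replicates after Nutlin stood far apart, as given below, and the SE here does not include that spread. The log2 fold change was 1.03 ± 0.15 (SE, n = 2 against 2, edgeR adjusted p = 0.00123), 1.12 without 12 h replicate 2 (adjusted p = 0.00528) and 0.88 with the GC trend (adjusted p = 0.00639). ZNF589, a KRAB protein of blood cell development, had 18.5 and 18.1 CPM in vehicle and 30.1 and 34.2 CPM at 12 h, a log2 fold change of 0.79 ± 0.14 (adjusted p = 0.00347) that was 0.74 with the trend (adjusted p = 0.0122). ZNF609, which acts with the cohesin loader and Integrator and is host to a circular RNA, had 28.1 and 34.2 CPM in vehicle against 50.5 and 50.7 CPM. Its log2 fold change was 0.70 ± 0.13 (adjusted p = 0.00404), and 0.60 with the trend (adjusted p = 0.0222). With the trend and without 12 h replicate 2, ZNF609 had an edgeR adjusted p of 0.0598 and so missed the threshold.

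The other raised genes whose libraries did not overlap included ZNF618 (log2 fold change 0.77), ZNF649, a KRAB protein (0.68), ZNF500 (0.68), ZNF445, a KRAB protein of genomic imprinting (0.63), and ZNF200 (0.61). ZNF618 and ZNF445 had edgeR adjusted p values of 0.136 and 0.0674 in the fit without 12 h replicate 2. With the GC trend ZNF618 and ZNF500 missed the threshold, at 0.66 (adjusted p = 0.135) and 0.52 (adjusted p = 0.178). The longest transcripts of ZNF649 and ZNF200 are fairly AT-rich, 41.7% and 41.0% GC. With the trend, which uses these values, their log2 fold changes were larger, 0.87 and 0.83. ZNF200 had 15.4 and 16.5 CPM in vehicle and 28.0 and 18.4 CPM at 12 h, so the size of its rise rested mostly on replicate 1. ZNF142, ZNF589, ZNF609, ZNF649, ZNF266 and ZNF200 were among the 7 genes called in both fits. A fit without 12 h replicate 2 still holds replicate 1, so a call there is no separate support.

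Among lowered genes, ZNF181 (chr19:34734155-34745378, 37.9% GC) had 16.6 and 17.9 CPM in vehicle and 8.01 and 9.59 CPM at 12 h. The groups did not overlap, and the log2 fold change was -1.02 ± 0.20 (edgeR adjusted p = 0.00613), or -0.67 with the GC trend (adjusted p = 0.0778). ZNF92, a KRAB protein with 34.7% transcript GC, had 36.9 and 30.0 CPM in vehicle and 16.5 and 18.6 CPM at 12 h. Its log2 fold change of -0.96 ± 0.18 (adjusted p = 0.00469) became -0.48 with the trend (adjusted p = 0.172). ZNF644, a partner of the histone methyltransferases G9a and GLP, had 183 and 189 CPM in vehicle and 124 and 120 CPM at 12 h. The log2 fold change was -0.60 ± 0.09 (adjusted p = 0.00123), and with the trend -0.22 (adjusted p = 0.153).

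The remaining named genes of the lowered group were ZNF658 (log2 fold change -0.70), ZNF678 (-0.65), ZNF107 (-0.59), ZNF823 (-0.57) and ZNF770 (-0.55), and each was past the threshold without the trend and short of it with the trend. ZNF658, ZNF678 and ZNF107 also had edgeR adjusted p values of 0.0619, 0.0556 and 0.0578 without 12 h replicate 2. ZNF207, the highest of the 275 genes, had 326 CPM in both vehicle libraries and 248 CPM in both 12 h libraries. Its log2 fold change was -0.39 ± 0.07 (adjusted p = 0.00334), but 0.01 with the trend (adjusted p = 0.972). Transcripts of the 15 lowered genes had 34% to 42.3% GC and those of the 14 raised genes 41.0% to 58.8%, while promoters matched for 15 and 12 of them had medians of 62.3% and 63.5%.

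**Figure D3:**
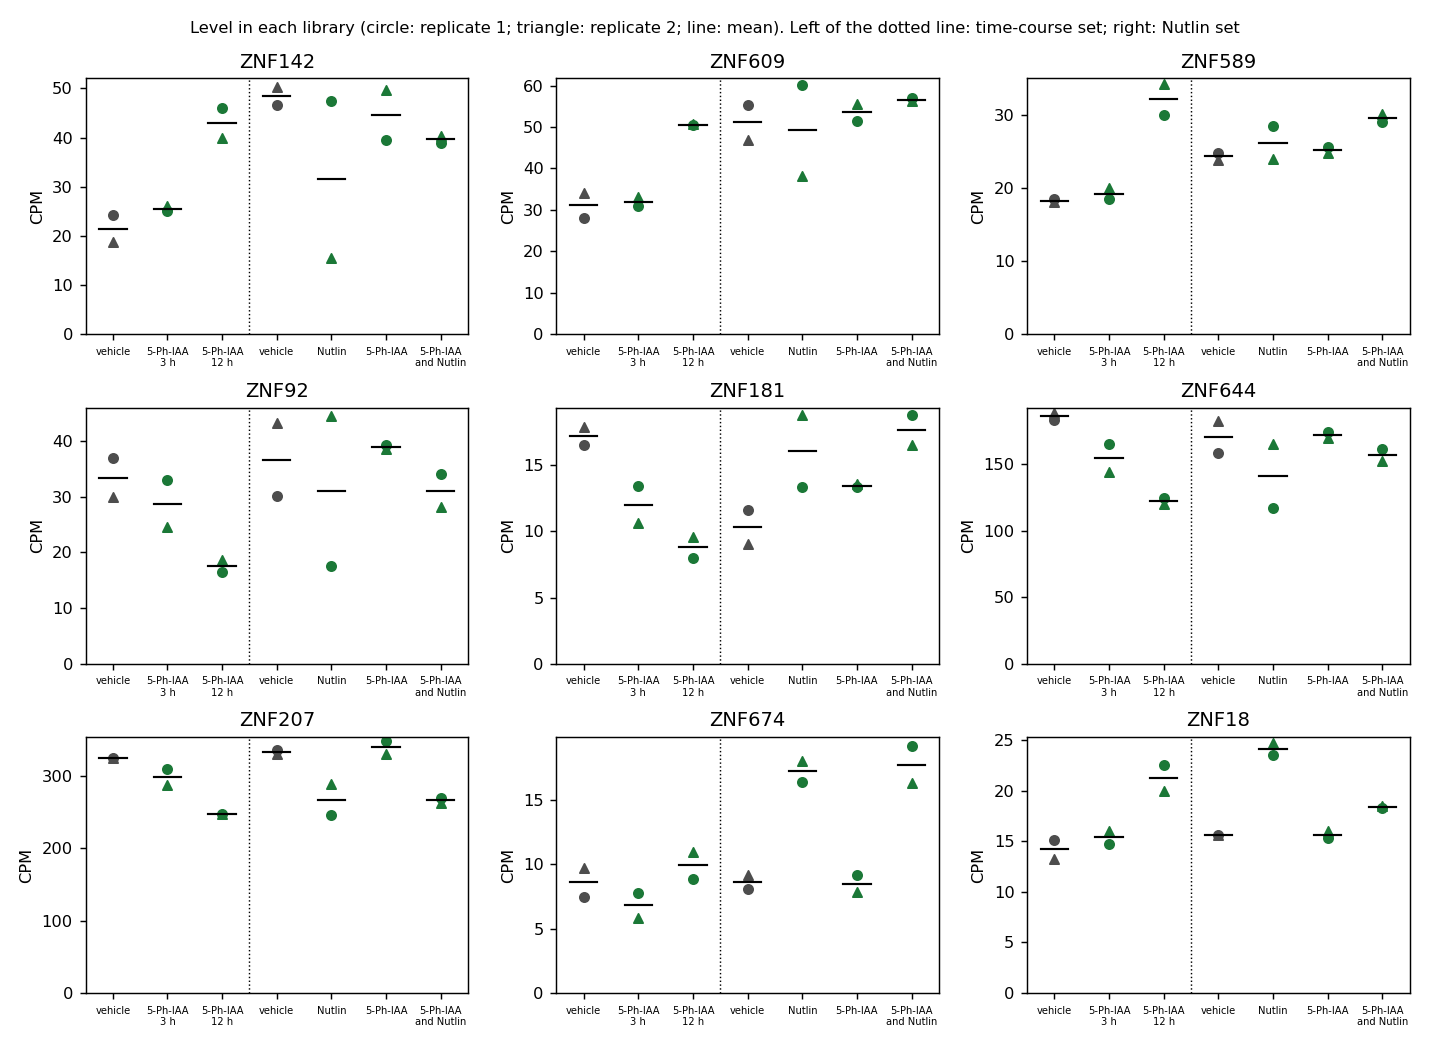
CPM (y axis, from 0) of 9 ZNF genes in each library by group (x axis), with circles for replicate 1, triangles for replicate 2, a line for the mean of the pair and vehicle in grey. ZNF142 stands at 45.9 and 40.0 CPM at 12 h against 24.2 and 18.7 CPM in vehicle, and ZNF674 at 16.4 and 18 CPM after Nutlin against 8.08 and 9.14 CPM in vehicle.

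ZNF83 had the lowest log2 fold change of all, -1.47 at 12 h, and did not pass the test with both libraries (edgeR adjusted p = 0.116). It is named after its values were seen. Its level was 20.4 and 17.3 CPM in vehicle, 2.7 CPM in 12 h replicate 1 and 17.5 CPM in 12 h replicate 2, so the replicates disagreed. Its counts were split in all 14 libraries, and it is the lowered gene of the GC-trend fit without 12 h replicate 2.

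By median, features other than GC divided the genes less. On chromosome 19 the median log2 fold change at 12 h was -0.04 without the trend and 0.10 with it, against 0.05 and 0.06 on other chromosomes. Genes with both KRAB patterns had -0.08 and 0.09, genes with 1 of them 0.08 and 0.07, and genes with neither 0.11 and 0.06. By fingers, the medians without the trend were 0.12 for 0 to 4, 0.01 for 5 to 12 and 0.01 for 13 or more, and with it 0.05, 0.07 and 0.10. By transcript length, the long, middle and short terciles had medians of -0.015, 0.017 and 0.078 without the trend and 0.091, 0.073 and 0.068 with it. Without the trend they held 6, 5 and 3 raised and 11, 2 and 2 lowered genes. The share of all tested genes called by length was not computed. The sign of the medians for chromosome 19 and both KRAB patterns, and the order by fingers and by length, thus depended on the trend.

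ZNF genes of known function were followed in each comparison, 9 of a list of 12 being among the 275. At 12 h ZNF24 (log2 fold change -0.37, edgeR adjusted p = 0.00928) and ZNF148, a factor of GC-rich promoters (-0.40, adjusted p = 0.0327), were lowered beside ZNF207, and with the GC trend these stood at 0.02 and 0.06. ZNF148 had an adjusted p of 0.142 without 12 h replicate 2. ZNF274, which brings TRIM28 and SETDB1 to ZNF gene clusters, had -0.56 (adjusted p = 0.0805) and -0.65 with the trend (adjusted p = 0.0739). ZNF91, a repressor of SVA retrotransposons, had -0.52 (adjusted p = 0.126) and -0.13 with the trend. ZNF131, ZNF143, ZNF217 and ZNF281 had log2 fold changes of -0.21 to 0.08 and did not pass.

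The KRAB corepressor list (33 genes, all tested) had 4 raised and 5 lowered genes at 12 h with a median log2 fold change of 0.09, and with the GC trend 3 raised and 0 lowered. Over all tested genes, 3.39% were raised and 7.97% lowered at 12 h, and 2.05% and 2.12% with the trend. TRIM28 stood at 507 and 500 CPM in vehicle and 520 and 580 CPM at 12 h (log2 fold change 0.12, edgeR adjusted p = 0.291), and SETDB1 at 58.4 and 63.7 CPM against 65.0 and 61.6 CPM (0.06, adjusted p = 0.782). CHD4, the ATPase of the NuRD complex, rose by 0.46 (adjusted p = 0.000932) and by 0.36 with the trend (adjusted p = 0.00660). CBX3, a heterochromatin protein, fell by 0.43 on the log2 scale (adjusted p = 0.00122), a call the trend removed. Of 97 zinc finger genes under other symbols, 77 were tested, with 7 raised and 5 lowered at 12 h and a median of 0.02, or 4 raised and 0 lowered with the trend. ZKSCAN8 rose by 0.69 (adjusted p = 0.00270) and by 0.92 with the trend (adjusted p = 0.00245).

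No ZNF gene passed the test at 3 h of 5-Ph-IAA in the time-course set or after 5-Ph-IAA in the Nutlin set. In the time-course set 0 of 275 were called by edgeR without the trend (0.0682% of all tested genes) and 0 with it (0.0682%), 20 and 23 had an unadjusted p under 0.05 (6.45% and 5.77% of all tested genes), and DESeq2 called 0 (0.314% of all genes). The median log2 fold change was -0.01, and 0.01 with the trend. In the Nutlin set 5-Ph-IAA gave 0 calls in both fits (0% and 0% of all tested genes), 3 genes with an unadjusted p under 0.05 in each (1.42% and 1.61% of all tested genes), and 0 calls by DESeq2 (0.0058%), with medians of 0.01 and 0.01.

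The largest 3 h values by p in the time-course set were falls in level that did not pass. Without the GC trend, ZNF483 had a log2 fold change of -0.51 (edgeR adjusted p = 0.635), ZNF644 -0.27 (adjusted p = 0.635) and ZNF148 -0.32 (adjusted p = 0.677). Their transcripts are AT-rich, at 40.9%, 37.3% and 35.6% GC. For transcripts of 36% GC the trend's curve stood at -0.10 and -0.13 in the 3 h libraries. ZNF644 had 183 and 189 CPM in vehicle, 165 and 144 CPM at 3 h and 124 and 120 CPM at 12 h, with no overlap between the 3 groups. CPM values are not corrected for the GC trend. On the raised side ZNF217, an oncogene product that binds the CtBP and CoREST corepressors, had 0.34 (adjusted p = 0.747), with 23.3 and 25.1 CPM in vehicle and 30.7 CPM in both 3 h libraries. In the Nutlin set ZNF217 had -0.10, and ZNF235 (-0.53) and ZNF302 (0.23) were among the genes with the lowest p in their direction, each with an adjusted p of 1.

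By GC tercile, the 3 h medians in the time-course set were -0.11 for the AT-rich, -0.01 for the middle and 0.06 for the GC-rich tercile, and -0.03, 0.01 and 0.04 with the trend. The AT-rich tercile stood at -0.08 and -0.10 in the 3 h libraries, and vehicle replicates themselves differed from their mean by 0.04. In the Nutlin set the AT-rich tercile stood at 0.04 and 0.04 after 5-Ph-IAA. The 3 h response of the time-course set and the 5-Ph-IAA response of the Nutlin set share no library. They had a Pearson r of -0.06 across the 275 genes, with 139 of the same sign. Their 5-Ph-IAA times may differ, since the labels of the Nutlin set leave that time unclear. The difference between the responses, tested as an interaction over all 8 libraries, called 0 ZNF genes without the trend (0.0636% of all tested genes) and 0 with it (0.0371%). DESeq2 also called 0 (0.249%), and 23 and 22 genes had an unadjusted p under 0.05, as did 6.35% and 5.99% of all tested genes.

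The clearest ZNF response to Nutlin was that of ZNF674, a KRAB protein gene on chrX:46497727-46545457 with 40.0% transcript GC, whose RNA doubled with and without 5-Ph-IAA. It stood at 8.08 and 9.14 CPM in vehicle, 16.4 and 18 CPM after Nutlin, 9.15 and 7.85 CPM after 5-Ph-IAA and 19.2 and 16.3 CPM after both. All 4 libraries with Nutlin lay above all 4 without it, and the time-course libraries ranged from 5.81 to 11 CPM. The log2 fold change was 1.0 ± 0.16 (SE, n = 2 against 2, edgeR adjusted p = 0.027) for Nutlin against vehicle, and 1.06 with the GC trend (adjusted p = 0.0093). Against 5-Ph-IAA alone, the combination gave 1.06 ± 0.16 (adjusted p = 0.0253). The Nutlin call was lost without vehicle replicate 1 or 2 (adjusted p of 0.354 and 0.233, log2 fold changes of 0.91 and 1.09) and kept without Nutlin replicate 1 or 2 (adjusted p of 0.00105 and 0.0078). Fitting the vehicle and Nutlin libraries alone gave 0.198. ZNF674 counts were split in all 14 libraries, as were those of the neighbouring KRBOX4. KRBOX4 had a log2 fold change of 0.23 after Nutlin (edgeR adjusted p = 0.605). It had 0.41 for the combination against vehicle (adjusted p = 0.505) and 0.45 against 5-Ph-IAA (adjusted p = 0.416). The divergent ZNF674-AS1 does not overlap ZNF674 in the annotation. In the same order it had 0.24 (adjusted p = 0.739), 0.61 (adjusted p = 0.526) and 0.25 (adjusted p = 0.866).

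Nutlin against vehicle called 1 ZNF gene, ZNF674, and 0.464% of all tested genes. With the GC trend it called 2 (0.736% of all genes), the other being ZNF18, a SCAN-domain protein gene. ZNF18 had 15.6 CPM in both vehicle libraries and 23.6 and 24.7 CPM after Nutlin, a log2 fold change of 0.63 ± 0.12 (edgeR adjusted p = 0.0607) and 0.62 with the trend (adjusted p = 0.047). In the combination it stood lower, at 18.3 and 18.4 CPM, a difference from Nutlin alone of -0.39 that did not pass (adjusted p = 0.604). The 2 Nutlin libraries differed from each other: the AT-rich tercile stood at -0.20 in replicate 1 and 0.04 in replicate 2, and the GC-rich tercile at 0.08 and -0.10. ZNF142 had 47.5 CPM in one and 15.6 CPM in the other. Without replicate 1 the test called 45 ZNF genes (12.5% of all tested genes), without replicate 2 it called 29 (6.82%), and without either vehicle library 0.

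Several ZNF genes had low p values after Nutlin without passing. ZNF623 (log2 fold change 0.48, edgeR adjusted p = 0.111) and ZNF619 (0.62, adjusted p = 0.152) stood higher. ZNF652, a transcriptional repressor, stood lower (-0.54, adjusted p = 0.137), as did ZNF503 (-0.77, adjusted p = 0.138) and ZNF367 (-0.54, adjusted p = 0.138). ZNF503 had 13.9 and 13.1 CPM in vehicle, 8.50 and 7.43 CPM after Nutlin and 6.25 and 8.23 CPM after both agents. ZNF207 had 337 and 331 CPM in vehicle, 247 and 289 CPM after Nutlin and 270 and 263 CPM after both. Its vehicle values lay above all 4 values with Nutlin, where the 2 groups overlapped, and its log2 fold change of -0.32 had an adjusted p of 0.279. ZNF274 stood at 0.43 (adjusted p = 0.378).

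The combination against vehicle also called ZNF674 alone (1.04 ± 0.16, edgeR adjusted p = 0.0248) and 0.325% of all tested genes, or 0.545% with the trend, where ZNF674 was again the 1 call. Leaving out any 1 of the 4 libraries, here and against 5-Ph-IAA, gave 0 calls, with log2 fold changes of ZNF674 from 0.92 to 1.17. Low p values without a call fell to ZNF623 (0.54), ZNF572 (0.75) and ZNF564 (0.56) on the raised side and ZNF503 (-0.90), ZNF367 (-0.52) and ZNF574 on the lowered side. Against 5-Ph-IAA the combination called ZNF674 and 0.388% of all genes, or 0.493% with the trend. ZNF397 (0.41, adjusted p = 0.231) and ZNF574 (-0.58, adjusted p = 0.172) were among those just short. ZNF574 had 24.7 and 29.3 CPM after 5-Ph-IAA and 17.2 and 19 CPM after both agents.

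The Nutlin response without 5-Ph-IAA (Nutlin against vehicle) and with it (the combination against 5-Ph-IAA) rest on separate libraries. Across the 275 genes the 2 log2 fold changes had a Pearson r of 0.61, and 0.61 with the GC trend. The sign was the same for 179 of the 275 genes, and for all 25 that had an unadjusted p under 0.05 in both. The genes share libraries' depth and composition, so r is a description. The same values over all tested genes were not computed, so the likeness is not shown to be particular to ZNF genes.

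**Figure D4:**
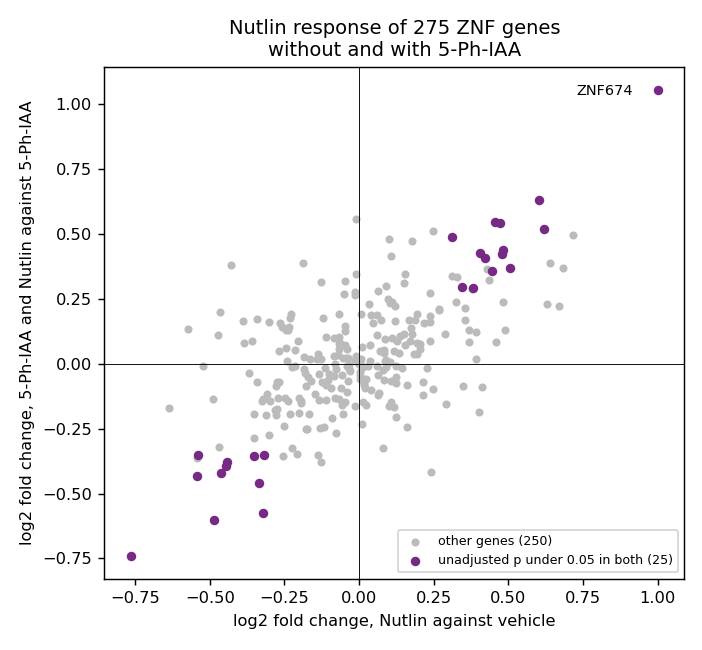
Log2 fold change of each of the 275 ZNF genes for Nutlin against vehicle (x axis) and for 5-Ph-IAA with Nutlin against 5-Ph-IAA (y axis), from separate libraries. The 25 purple points, genes with an unadjusted p under 0.05 in both, lie to the lower left or the upper right of the origin, and ZNF674 stands apart at 1.0 and 1.06.

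Adding 5-Ph-IAA to Nutlin changed no ZNF gene past the test with all libraries. The combination against Nutlin called 0 by edgeR without the trend and 0 with it (0% and 0% of all tested genes), and 23 and 18 genes had an unadjusted p under 0.05 (8.14% and 6.94% of all tested genes). DESeq2 called 0, but gave an adjusted p to 9 of the 275 genes and called 1.57% of all genes that had one. ZNF808, a KRAB protein gene, had 18.2 and 16.5 CPM after Nutlin and 27.2 and 27.7 CPM after both, a log2 fold change of 0.66 (adjusted p = 0.604). ZNF83 (0.56) and ZNF706 (0.36) followed it on the raised side, and ZNF593 (-0.30) and ZNF485 (-0.41) on the lowered side. The interaction of 5-Ph-IAA and Nutlin likewise called 0 in both fits (0% and 0%) and 0 by DESeq2 (0.0058%), with 11 and 10 genes at an unadjusted p under 0.05, beside 3.61% and 3.71% of all tested genes. Without Nutlin replicate 1, the combination against Nutlin called 35 genes (14.4% of all tested genes) and the interaction 11 (6.09%). In the interaction over all 8 libraries, ZNF485 (-0.66) and ZNF235 (0.81) had the lowest p values of the ZNF genes, each with an edgeR adjusted p of 0.989.

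In the Nutlin set the KRAB corepressor list had 0 raised and 0 lowered of 33 in every comparison, without and with the trend, with medians between -0.05 and 0.01. Of 75 tested zinc finger genes under other symbols, 0 were called without the trend, and 1, ZBTB7A, was lowered after Nutlin with it (-0.95, edgeR adjusted p = 0.0402). That Nutlin fit called 0.736% of all tested genes. TRIM28 ranged from 558 to 688 CPM and SETDB1 from 58.9 to 70.2 CPM over the 8 libraries. The medians of the 275 ZNF genes were -0.01 after Nutlin and 0.02 after the combination, and 0.01 and 0.02 with the GC trend. Over the 5 treated groups the median change of ZNF genes thus lay between -0.01 and 0.02 without the trend and between 0.01 and 0.07 with it.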

How the data were processed

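Total RNA from 14 HCT116 libraries (7 groups of 2) was sequenced after a stranded total RNA kit, per the labels' protocols. The authors deposited RSEM gene tables with expected counts and TPM values per the file headers; STAR 2.7.10b, RSEM (version not given), DESeq2 1.48.1 and hg38/GRCh38 stand in the submitters' processing notes, and the annotation release is not given in the sources used here. Symbols, GC content (longest transcript), fingers and KRAB patterns came from GENCODE 29 by unversioned identifier. Expected counts were rounded and tested with edgeR 4.0.16 (R 4.3.3): quasi-likelihood test, TMM, genes with low counts removed (minimum 10), 1 coefficient per group, each set fitted apart, Benjamini-Hochberg adjustment over all tested genes, threshold 0.05. The GC trend was a lowess curve (span 0.3) per library, entered as an offset. Fold changes are log2. DESeq2 1.42.0 and other settings were alternatives. The fits were tested on simulated data. Same-numbered libraries deviated together with correlations from -0.089 to 0.047, so numbers were taken as names, not pairs. Members and lists were chosen with earlier results of these data known. Genes were named by rule: a list of ZNF genes of known function, called genes whose libraries did not overlap (up to 8 raised and 8 lowered by size), else the 3 lowest p values per direction, the 5 highest levels, the extremes of GC, and up to 4 genes whose call differed with the trend.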

Additional observations from a re-analysis of the deposited data

How the results depend on the processing

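Counts of calls moved with the GC trend, with the groups fitted, with the low-count filter and with single libraries, and the cause was not tested. The share of all tested genes called under the same setting stands in brackets. At 12 h, 29 ZNF genes were called with a median log2 fold change of 0.02. The GC trend gave 7 (4.17%) and 0.0728, the trend fitted without ZNF genes 8 (4.26%) and 0.0764, a span of 0.7 8 (4.36%) and 0.0858, GC and length trends 7 (4.42%) and 0.0721, and the trend without 12 h replicate 2, chosen after seeing the data, 9 (2.73%) and 0.0769. RLE size factors gave a median of 0.0414, DESeq2 0.0502 and no low-count filter 0.000616. Only the compared groups gave 18 calls (8.15%), and libraries thinned to the shallowest 12 (6.11%). At 3 h in the time-course set the median was -0.01, but 0.0103, 0.0102, 0.0112 and 0.0105 under those 4 GC settings, 0.00539 without the filter, -0.00217 with the compared groups only and -0.0485 after thinning. It was -0.0251 with members taken by mean count and, chosen after seeing the data, over all tested ZNF genes.

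After Nutlin, 1 call became 2 with the GC trend (0.736%), with the trend fitted without ZNF genes (0.736%), with span 0.7 (0.754%) and in DESeq2 (1.11%), 6 with GC and length trends (0.962%; median 0.0209), 9 without the filter (1.09%), and 0 with the compared groups only (0.162%) or over genes with whole counts, since ZNF674 has split ones. For the combination against vehicle, 1 call became 2 with GC and length trends (0.638%) and in DESeq2 (0.603%), 5 without the filter (0.724%), 12 with the compared groups only (2.23%) and 0 over genes with whole counts. Against 5-Ph-IAA it became 3 without the filter (0.729%), 22 with the compared groups only (3.39%) and 0 over genes with whole counts. Against Nutlin the filter's removal gave 1 call (0.367%), the GC trend a median of -0.0117 and GC and length trends -0.0329. For the difference between sets, 0 calls became 3 without the filter (0.489%). The compared-groups setting adds nothing to the interaction and the difference between sets, which use all groups.

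The replicate block, with the number as a term although it pairs nothing in the labels, gave 33 calls at 12 h (13.1%) and 14 with the GC trend (5.94%; median 0.0814), 0 after Nutlin (0.354%), 0 for the combination against vehicle (0.243%) and 0 against 5-Ph-IAA (0.261%), with 1 call in each of these 3 with the GC trend (0.499%, 0.383% and 0.406%). The 3 h median under the block with the GC trend was 0.00817.

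Leaving out 1 library at a time gave 7 to 27 calls at 12 h (4.48% to 11.03%; medians -0.00548 to 0.0323), 3 h medians of -0.0504 to -0.000734, and 0 to 45 calls after Nutlin (0.145% to 12.5%; medians -0.0414 to 0.0200). The combination gave 0 calls against vehicle and 0 against 5-Ph-IAA in each of the 4 fits, and against Nutlin it ranged from 0 to 35 (0% to 14.4%; medians -0.0205 to 0.0551), the interaction from 0 to 11 (0% to 6.09%), the highest counts being those without Nutlin replicate 1.

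At 12 h some genes changed sign. Under the GC trend, the trend without ZNF genes, span 0.7 and the block with the trend, ZNF148 had 0.0583, 0.0570, 0.0346 and 0.0619, ZNF24 0.0169, 0.0187, 0.00162 and 0.0221, ZNF143 0.110, 0.117, 0.123 and 0.0876, and ZNF217 0.121, 0.126, 0.133 and 0.137. ZNF207 had 0.00871 and 0.0103 under the trend settings and 0.00671 with the block. GC and length trends gave 0.142 for ZNF143 and 0.0894 for ZNF217. ZNF217, at -0.00139, also turned under RLE (0.0220), the block (0.0164), the compared groups only (0.00834), thinning (0.0814) and DESeq2 (0.0359). Without 1 library, ZNF143 ranged from -0.394 to 0.137 and ZNF217 from -0.110 to 0.221.

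The share of counts in the 275 genes averaged 0.846%, and was 0.476% over genes with whole counts, 0.230% as a share of TPM and 0.868% for the 337 genes with a mean count of 20. Depth limits the 12 h comparison: its second library held 3.54 M counts, and 1 gene's count there could be as low as 20.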
